A study of Mus musculus with 4 samples.

Results

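Repair at both ends of donor DNA integrated at the m*Alb* locus of the liver is described here, with the 5′ junction set beside the 3′ junction. Libraries 1 and 2, chosen by the tissue in their labels, are 2 of the 4 libraries of the series. Each holds PCR products across 1 junction between genome and donor DNA, and both come from 1 liver. It was taken from a C57BL/6J mouse injected at postnatal day 1 to 2 through the temporal vein with AAV8 vectors, at 4e13 genome copies per kg of each vector, and DNA was taken 30 days later. A first vector carried the *Streptococcus pyogenes* nuclease SpCas9 behind HLP, a promoter active in hepatocytes, and the other the donor DNA with the gRNA. No library from a tissue treated with a scramble gRNA was analysed here.

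In homology-independent targeted integration (HITI), Cas9 cuts both the genome and the donor DNA, and the cell joins the free ends by non-homologous end joining, without a homologous template. End joining may trim or fill the ends, and the result is read as insertions and deletions (INDELs) at the junction. Albumin is the main secreted protein of hepatocytes.

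The target region is shown because every INDEL below is placed from its cleavage site. It was read from the plus strand of GRCm39 at chr5:90609567-90609626, with the gRNA target site and its PAM in capitals, and cleavage falls 3 nt before the PAM, in exon 2 of *Alb* (ENSMUSG00000029368.12).
mAlb target region: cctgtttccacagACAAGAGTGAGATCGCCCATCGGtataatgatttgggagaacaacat

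The target site is inverted on the donor DNA, so each junction reads the same on both strands around the cleavage site. This symmetric stretch had 34 nt at the 5′ junction, where 17 nt of inverted site follow the genome, and 14 nt at the 3′ junction, where 6 nt of it precede the genome. An INDEL was defined by its kind, position and length, and was counted if it opened within 17 nt of the cleavage site and reached 0.1% of the depth there. That corresponds to 120 of 119189 reads at the 5′ end and 427 of 426390 at the 3′ end. There were no replicates, so no test was made, and the 95% Wilson intervals cover counting error only, because PCR reads without molecular identifiers are not independent molecules. The window is not equal for donor DNA, which follows the cleavage site at the 5′ end and precedes it at the 3′ end: a counted deletion can take up to 50 nt of donor DNA at the 5′ end and up to 16 nt at the 3′ end, as aligned. For genomic DNA the reach was the other way round, with up to 15 nt taken by a counted deletion at the 5′ end and 40 nt at the 3′ end. The ends were therefore also compared by the INDELs that lie wholly within 16 nt on each side. This is called the equal window here and was chosen after seeing the data. It leaves out every deletion that removes more than 16 nt on either side of the cleavage site.

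The junctions held nearly the same number of different INDELs, but the reads were spread over them differently. At the 5′ end 65 INDELs passed the minimum and at the 3′ end 66, of which 58 and 59 were deletions and 7 at each end were insertions. The inverse Simpson index, the number of equally frequent INDELs that would give the same concentration of reads, was 33.5 at the 5′ end and 12.2 at the 3′ end, a difference of 2.75 times. The leading INDEL held 8.61% of the INDEL reads (8.31 to 8.93) at the 5′ end, while the leading one at the 3′ end held 20.1% (20.0 to 20.3). It took 13 INDELs at the 5′ end and 5 at the 3′ end to reach 50% of the INDEL reads. The 3′ junction was thus the more concentrated, although 45 and 39 INDELs were needed to reach 90%. In the equal window the index was 21.4 and 11.5, and the order of the numbers needed for 90% turned, with 26 and 35.

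The frequencies fell off gradually, with no gap at the minimum. The rarest INDEL counted at the 5′ end had 121 reads and the most frequent one left out had 119, and the same pair at the 3′ end was 454 and 420 reads. INDELs below the minimum held 14.9% and 14.6% of all listed INDEL reads, in 294 and 702 different INDELs. Lower minima therefore kept adding INDELs, with 104 and 105 at 0.05%, 140 and 196 at 0.02%, and 149 and 249 at 0.01%. Higher ones left 38 and 45 at 0.2% and 1 and 3 at 2%.

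Which end had more different INDELs depended on the setting. With no minimum the 3′ end had more, 768 against 359, and still 549 when brought to the depth of the 5′ end. With 5 nt on each side the 5′ end had more, 53 against 36, as it did with 0.5% as the minimum, 17 against 15. With the deletion list of library 1 as deposited it had 101. In the equal window 38 INDELs of the 5′ end and 59 of the 3′ end were counted.

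**Figure D1:**
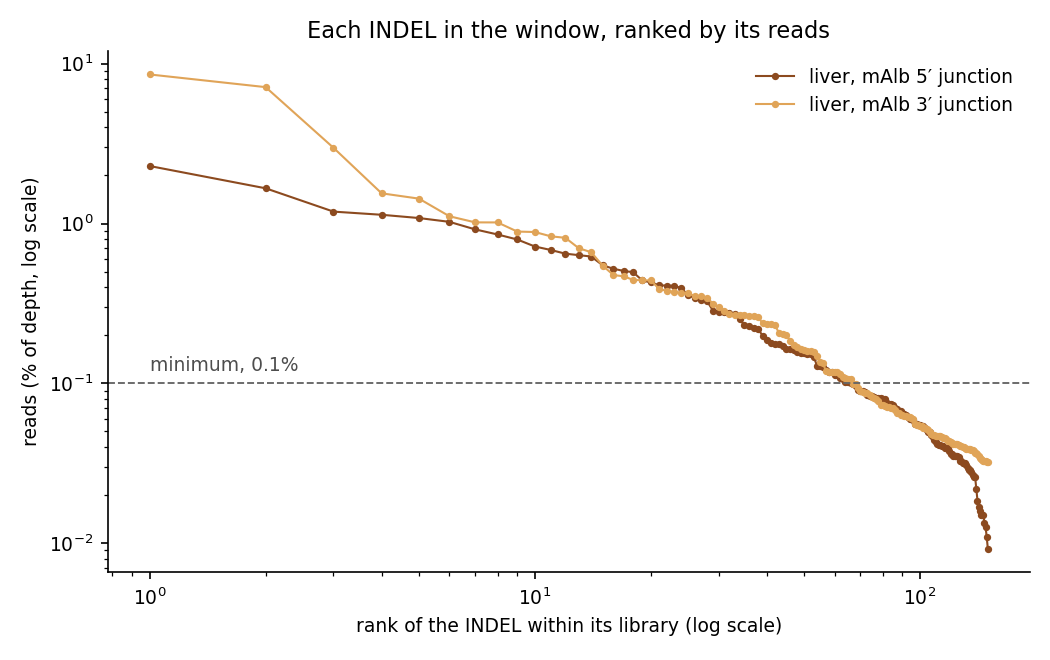
Reads of each INDEL in percent of depth against its rank within its library, both on log scales, for the first 150 INDELs of each junction; the dashed line is the minimum of 0.1%. Both curves cross the minimum without a break near rank 65, and the 3′ curve starts higher, at 8.57% against 2.29%.

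The junctions differed in insertions far more than in deletions. Insertions came to 4.51% of the reads (4.39 to 4.63) at the 5′ end and 18.0% (17.9 to 18.2) at the 3′ end, a difference of 4.0 times. Deletions came to 22.1% (21.8 to 22.3) and 24.5% (24.4 to 24.6), a difference of 1.11 times. There were therefore 0.204 insertion reads for each deletion read (0.198 to 0.210) at the 5′ end, and 0.737 (0.730 to 0.744) at the 3′ end, which is 3.60 times more. The INDEL shares were 26.6% (26.3 to 26.8) and 42.5% (42.4 to 42.7), and the insertions account for most of the distance between them. In the equal window, which leaves the insertions as they are, the deletions came to 15.6% (15.4 to 15.8) and 23.2% (23.1 to 23.4). Over the whole sequenced region, by per-position counts, deletions came to 29.1% and 40.4%, and insertions to 5.82% and 20.7%. How close the deletions of the ends are thus depended on the window.

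**Figure D2:**
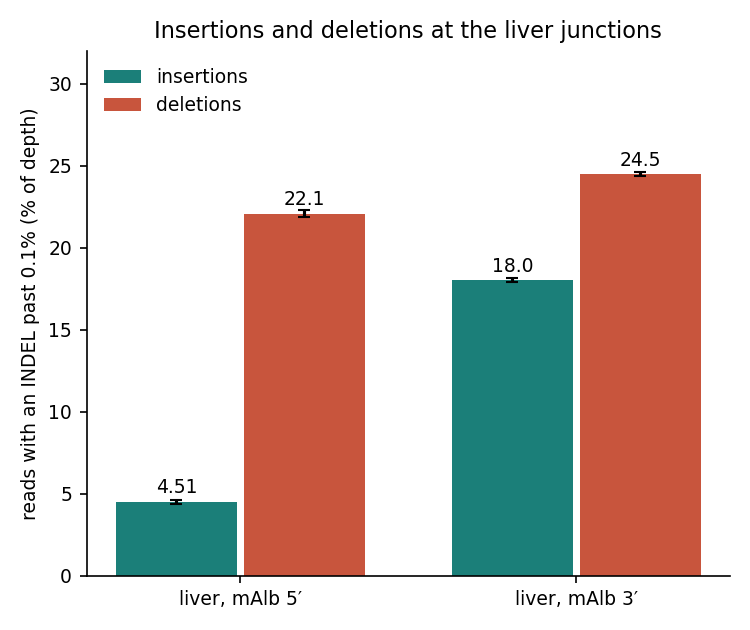
Reads with an insertion or a deletion past the minimum, in percent of the depth at the cleavage site; error bars are 95% Wilson intervals. Deletions are close in this window, at 22.1% and 24.5%, and insertions apart, at 4.51% and 18.0%. In the equal window deletions are less close, at 15.6% and 23.2%.

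The ratio was higher at the 3′ end under each setting for which it was computed, with minima up to 1%, by 2.56 to 8.05 times, and at a minimum of 0.5% or more insertions prevailed there, with ratios of 1.34 and 2.28 at 0.5% and 1%. The 5′ ratio was 0.315 and 0.376 at these minima. Rare INDELs were thus mostly deletions at both ends. The order of the INDEL shares turned only with the deletion list of library 1 as deposited, which gave 53.8% at the 5′ end.

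By position, part of the INDELs of each end had a match at the other. By kind, length and distance from the cleavage site as aligned, 21 INDELs passed the minimum at both ends, which is 32.3% of those at the 5′ end and 31.8% of those at the 3′ end. With every placement of a deletion that leaves the same sequence allowed, 32 INDELs of the 5′ end (49.2%) had a counterpart, and so had 33 of the 3′ end (50%), with 70.2% and 63.8% of the INDEL reads. The sequences of the ends differ, so a shared INDEL need not remove the same bases. Genome precedes the cleavage site at the 5′ end and follows it at the 3′ end. A shared deletion on 1 side of that site thus removes genome at 1 end and donor DNA at the other, and is not the same loss. The leading INDEL of both was an inserted base pair exactly at the cleavage site, with 2.29% of the reads (2.21 to 2.38) and 8.57% (8.48 to 8.65), and 2 bp inserted there had 0.648% and 1.55%. The second INDEL of the 3′ end was not shared as aligned. It was 1 bp inserted 1 nt before the cleavage site, with 7.14% of the reads (7.06 to 7.21) there and 0.0218% at the 5′ end. Placed 2 nt before the cleavage site, 1 inserted bp had 0.854% (0.803 to 0.908) at the 5′ end and 0.136% (0.125 to 0.148) at the 3′ end. The lists do not give the inserted bases, so equal placements of insertions could not be matched.

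Shared deletions of 1 nt next to the cleavage site had similar frequencies at both ends. Loss of the last nt before it had 1.66% of the reads (1.59 to 1.74) at the 5′ end, where it is aligned to the first of an identical pair, and 1.43% (1.40 to 1.47) at the 3′ end. Loss of the first nt after it had 1.19% (1.13 to 1.25) and 0.891% (0.863 to 0.919). The nt before it is genomic at the 5′ end and donor at the 3′ end, and the nt after it the reverse. Some of the longer shared deletions differed more, and others were as close. A deletion of 3 bp, placed 4 nt before the cleavage site, had 1.13% at the 5′ end and 0.269% (0.254 to 0.285) at the 3′ end. As aligned, it removes genome at the 5′ end and donor DNA at the 3′ end. The leading deletion of the 3′ end, of 13 bp, had 2.98% (2.93 to 3.03), against 0.279% (0.251 to 0.311) for its counterpart in an equal placement. As aligned, the first removes 13 nt of donor DNA and the counterpart 13 nt of genome. Another shared deletion, of 4 bp, had 1.11% (1.08 to 1.14) at the 3′ end and 0.171% (0.149 to 0.196) at the 5′ end.

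The bases that the leading deletions on the genomic side of the 5′ junction remove are shown in capitals, as aligned, within the 30 nt of reference that end at the cleavage site, chr5:90609567-90609596. The deletion of 3 bp can be moved by up to 2 nt to the right without a change in the sequence left, and that of 1 bp by 1 nt.
mAlb deletion of 1 bp: cctgtttccacagacaagagtgagatcgCc
mAlb deletion of 3 bp: cctgtttccacagacaagagtgagatCGCc

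Short INDELs held more of the INDEL reads at the 3′ end. Those of 1 or 2 bp held 29.6% (29.1 to 30.1) at the 5′ end and 49.5% (49.3 to 49.7) at the 3′ end, and the median length weighted by reads was 7 bp and 3 bp. The higher share at the 3′ end came mainly from insertions of 1 bp, which held 11.8% of the INDEL reads (11.5 to 12.2) at the 5′ end and 37.5% (37.3 to 37.7) at the 3′ end. Short deletions went the other way, with 10.7% and 5.74% for 1 bp and 3.15% and 1.71% for 2 bp. In percent of depth they were closer, with 2.85% and 2.44%, and 0.836% and 0.727%, since insertions add to the INDEL reads of the 3′ end. The order was the same in the equal window, where INDELs of 1 or 2 bp held 39.2% (38.6 to 39.8) and 51.0% (50.7 to 51.2). Rarer INDELs were longer: at a minimum of 1% those of 1 or 2 bp held 61.3% and 75.3% of the INDEL reads.

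Which end had the longer deletions depended on the window. Among the deletions counted, the mean was 14.4 bp (14.2 to 14.6) at the 5′ end and 11.0 bp (11.0 to 11.1) at the 3′ end, the median 10 bp at both, and lengths of 20 bp or more made up 26.8% (26.3 to 27.4) and 10.6% (10.4 to 10.8) of the deletion reads. Deletions of 20 bp or more that remove donor DNA up to the cleavage site open in the window at the 5′ end and before it at the 3′ end, so these values do not compare the ends evenly. In the equal window the order turned, with means of 6.38 bp (6.32 to 6.44) and 9.79 bp (9.75 to 9.83), medians of 6 bp and 9 bp, and 0% and 5.87% (5.72 to 6.02) of 20 bp or more. The equal window itself limits length, since a deletion of only genome or only donor DNA cannot be longer than its reach. Of the 24 and 13 different deletions of 20 bp or more, it kept 0 and 6. These values therefore do not settle which end had the longer deletions, and the part of the limit in the turn was not tested. The order also turned at a minimum of 1%, with means of 3.46 bp and 8.19 bp. Lengths of 10 to 19 bp were more frequent at the 3′ end both ways, with 24.1% (23.5 to 24.6) and 40.7% (40.4 to 41.0) of the deletion reads, and 30.4% and 42.8% in the equal window. The lists hold deletions of at most 50 bp that open within the window, so the lengths of others are not covered.

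Insertions past the minimum were short, with at most 3 bp at either end and means of 1.38 bp and 1.12 bp. Those of 1 bp made up 69.7% (68.4 to 70.9) and 88.5% (88.2 to 88.7) of the insertion reads. Longer ones were present below the minimum: of all listed insertion reads, 8.71% (8.06 to 9.42) at the 5′ end and 5.25% (5.10 to 5.40) at the 3′ end had 10 bp or more. No single long insertion was thus frequent, although together they were not rare.

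**Figure D3:**
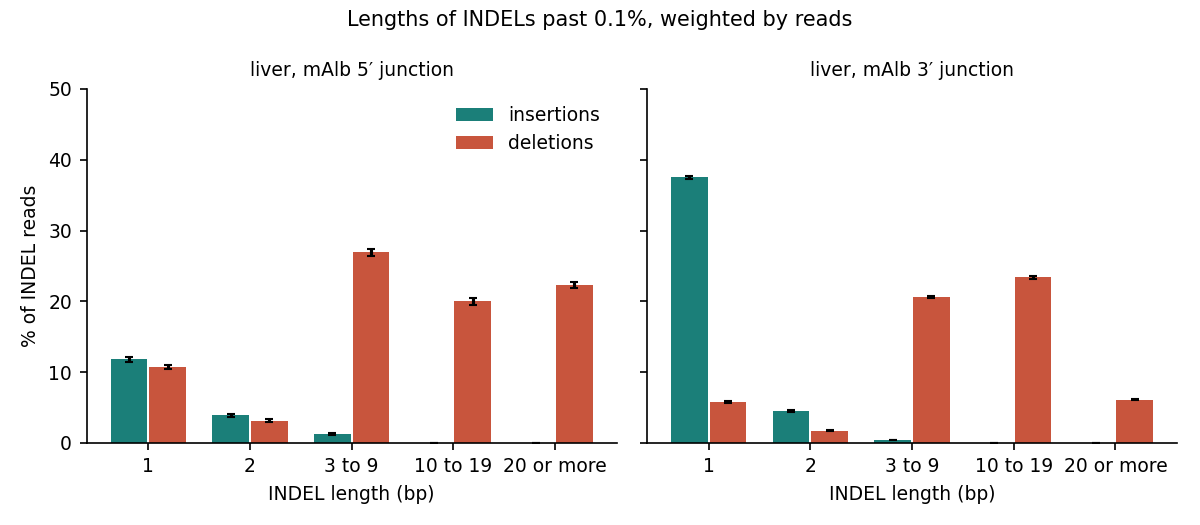
INDEL reads by length class and kind, in percent of the INDEL reads past the minimum; error bars are 95% Wilson intervals. The 3′ end has more insertions of 1 bp, 37.5% against 11.8%, while deletions of 20 bp or more, 22.3% against 6.12%, are not evenly covered by the window.

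INDELs with a length that 3 does not divide held 74.2% of the INDEL reads (73.7 to 74.7) at the 5′ end. At the 3′ end they held 86.6% (86.5 to 86.8). Among insertion reads alone they made up 92.7% and 99.1%, and among deletion reads 70.4% and 77.4%. The 3′ end was higher in each, and it also had the larger part of insertions. Per the paper, STOP codons in all 3 frames precede the donor's own translation start, to block the endogenous gene however precise the integration. Its coding sequence is followed by a polyadenylation sequence, so the 3′ junction lies after that. An effect of these lengths on a reading frame was not tested.

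INDELs started at the cleavage site more often at the 5′ end. As aligned, 55.1% of the INDEL reads (54.5 to 55.6) started exactly there, against 34.8% (34.6 to 35.0) at the 3′ end. The difference was larger among deletion reads, with 52.2% (51.6 to 52.8) and 18.5% (18.2 to 18.7). Among insertion reads it was smaller, with 69.0% and 57.0%. Insertions could be compared only as aligned, and their order may turn with equal placements. At the 3′ end, 1 bp inserted 1 nt before the cleavage site held 30427 of 76897 insertion reads. At the 5′ end, 1 bp inserted 2 nt before it held 1018 of 5377. At the 3′ end the donor DNA comes first, so a deletion of donor nucleotides that ends at the cleavage site starts before it. With either end of the deletion considered, and any placement that leaves the same sequence, 89.5% (89.1 to 89.9) and 77.1% (76.9 to 77.4) of the deletion reads had an end exactly at the cleavage site, in 48 of 58 and 35 of 59 deletions. How often 1 of the joined ends was left whole depends on the placement, because 30.8% and 48.6% of the deletion reads had a placement that crosses the cleavage site. Deletions that cross the cleavage site in every placement, and so trim both ends, made up 9.43% (9.09 to 9.79) and 20.9% (20.6 to 21.1). These orders were the same in the equal window, with 44.5% and 35.4% of the INDEL reads starting at the cleavage site, an end there in 87.5% and 78.8% of the deletion reads, and both ends trimmed in 11.7% and 19.1%.

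**Figure D4:**
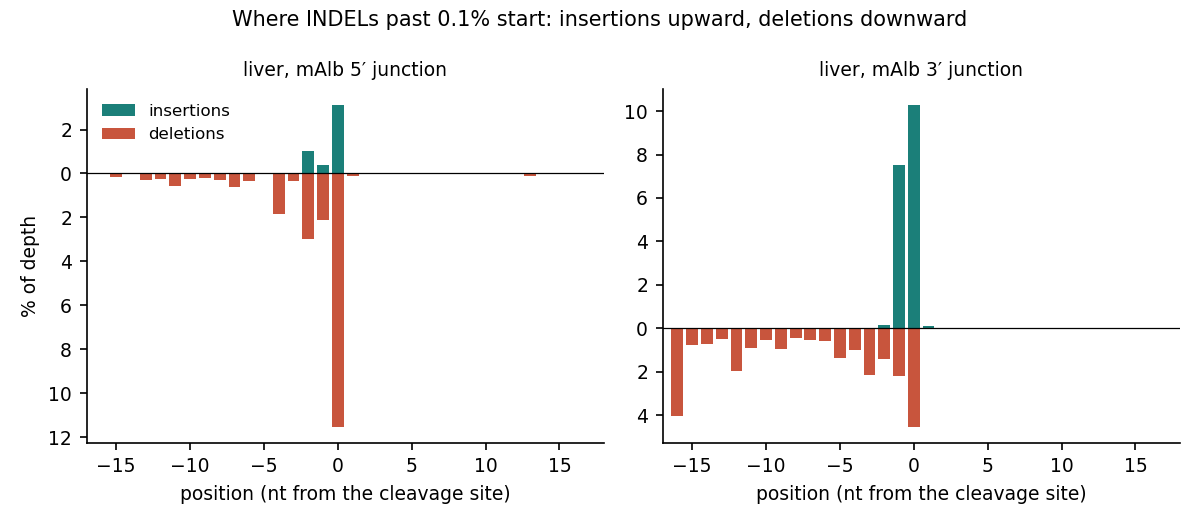
Reads with INDELs past the minimum by the position where the INDEL starts, in nt from the cleavage site, insertions upward and deletions downward, in percent of depth, with a scale of its own in each panel. Starts of deletions gather at the cleavage site at the 5′ end and are mostly spread over the 16 nt before it at the 3′ end. With either end of a deletion considered, 89.5% and 77.1% of the deletion reads have an end at the cleavage site.

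More donor than genomic nucleotides were lost at both ends. Gaps, which do not depend on where a deletion opens, came to 3.41 donor and 1.3 genomic nt per read over 60 nt on each side at the 5′ end, and to 4.68 and 1.65 nt at the 3′ end. The donor side thus lost 2.63 and 2.83 times as much as the genomic side. In the equal window the mean deletion removed 3.94 nt of donor DNA and 2.43 nt of genome at the 5′ end, against 6.57 and 3.21 nt at the 3′ end, with the leftmost placement. With the rightmost equal placement these were 4.48 and 1.9 nt, and 5.86 and 3.92 nt. Deletions of donor DNA alone held more reads than those of genome alone at both ends, by a margin that depended on the placement. With the leftmost one, deletions of donor DNA alone held 38.1% and 53.9% of the deletion reads and those of genome alone 36.6% and 18.7%, and with the rightmost one 51.7% and 34.7%, and 22.6% and 27.0%.

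Repeats of at least 2 nt at the ends of a deletion were more frequent at the 3′ end in percent of reads. They were found for 8 deletions with 12.7% of the deletion reads (12.3 to 13.1) at the 5′ end, and for 17 with 35.4% (35.2 to 35.7) at the 3′ end. The leading deletion of the 3′ end, of 13 bp with a repeat of 4 nt, alone held 12699 of these 37005 reads. What share the sequences of the ends would give by themselves was not tested. Deletions without any repeat held 54.3% (53.7 to 54.9) and 41.4% (41.1 to 41.7). In the equal window the repeats of at least 2 nt held 13.7% and 34.5%, while deletions without a repeat were nearly as frequent at either end, with 42.4% (41.7 to 43.2) and 41.8% (41.5 to 42.1). The longest repeat had 4 nt at either end.

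Gaps showed the same stretch of loss without regard to where deletions open. Reads with a gap reached 20.2% of the depth at the first nucleotide after the cleavage site at the 5′ end, and 27.4% at the nucleotide 4 nt before it at the 3′ end. At least 1% of the reads had a gap at 70 positions of the 5′ library, from 24 nt before to 46 nt after the cleavage site, and at 65 positions of the 3′ library, from 39 nt before to 26 nt after it. Both profiles reached farther on the donor side, which lies after the cleavage site at the 5′ end and before it at the 3′ end. Deletions that opened before the window summed to 3.0% and 10.8% of the depth, and are not counted in the shares above.

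**Figure D5:**
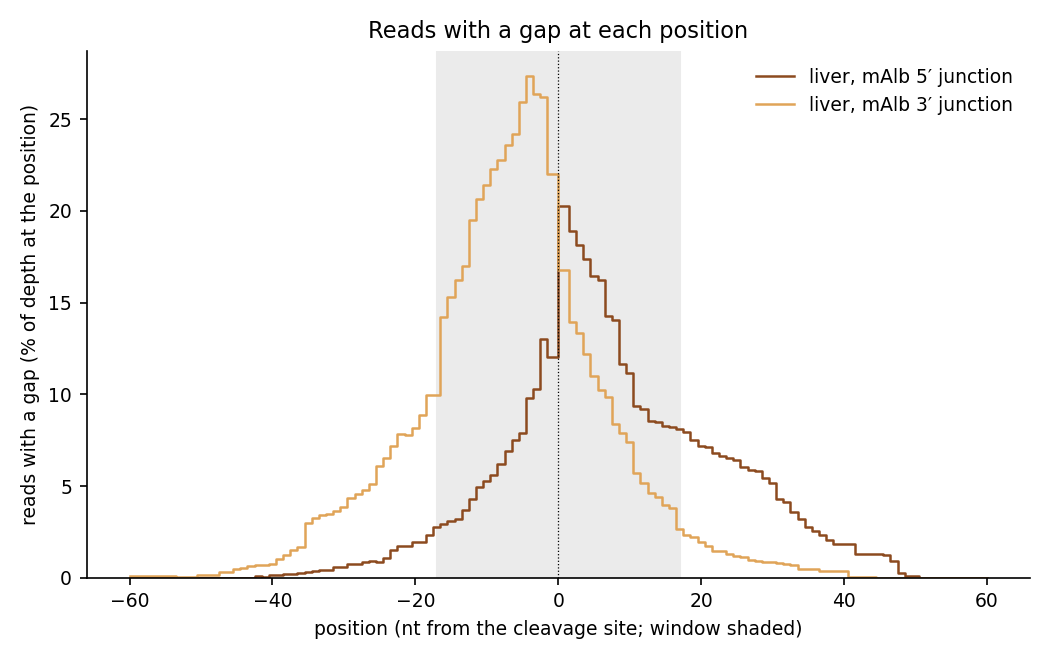
Reads with a gap at each position, in percent of the depth there, against distance from the cleavage site, with the window of 17 nt on each side shaded. The profiles peak at 20.2% and 27.4% and lean to opposite sides, each toward the donor DNA.

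The libraries differ in depth and in bases of low quality, and a single liver was sequenced, so the differences between the ends carry no estimate of variation between animals. The counts give reads and not integration events, and the number of events amplified was not measured here.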

How the data were processed

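The authors amplified the junctions by PCR from gRNA-treated tissue, sequenced them on a MiSeq and converted base calls with bcl2fastq. Trimming was by Cutadapt, alignment to the expected edited sequence by BWA-SW, and counting of bases, gaps and INDELs per position by deepSNV, with R code of the authors for the lists. The deposited values are raw counts of reads, without normalization, plus lists with the count of reads for each INDEL length at each position. A deposited quality score summed per position was not used. Per the methods of the study, its own minimum frequency was 0.5% in liver. The deposited list of deletions of library 1 was divided by 2, because it held 2.0 times the deletions of the per-position counts and only even entries, while the other lists came to between 0.988 and 1.00 times theirs. This choice followed a look at the values. The other libraries of the series are not reported here.

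The position of an INDEL was read as the nucleotide before it. The genomic part of each library was matched exactly to GRCm39, a build not named for the authors' alignment, with GENCODE M39 for exons. The INDELs named are those that rank 1 to 3 by reads among insertions and among deletions of a library, others being named where said. Members and lists were chosen with earlier results of these data known. The number, share and ratio of INDELs were checked on simulated data, and the outcome is not reported here. Alternatives covered the minimum, window, denominator, source of the counts, placement and weighting. Software was Python 3.11.15 with scipy 1.17.1, matplotlib 3.10.9, pandas 2.3.3 and, for arrays, numpy 2.4.6.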

Additional observations from a re-analysis of the deposited data

Results flagged for a closer look

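The values here come from positions outside the window, read ends and single bases, which the comparison of INDELs does not use. Their part in the differences between the junctions was not tested.

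Outside the window, deletions opened at up to 0.453% of the depth (95% interval 0.416 to 0.493) at a position of the m*Alb* 5′ library and at up to 1.3% (1.27 to 1.34) in the 3′ library, and 10 and 23 positions reached 0.1%. Reads that ended on the last nucleotide before the cleavage site or started on the first after it came to 5.32% and 7.97% of the depth (5′ and 3′), where the medians of the other window positions were 0.316% and 0.351%. Bases other than the most frequent one came to 1.41% (1.34 to 1.49) and 6.29% (6.21 to 6.38) of the called bases at the nucleotide before the cleavage site, against medians of 0.0678% and 0.0628% outside the window.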

How the results depend on the processing

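Of the values under the first list of alternatives, 54 left their 95% interval, or 1.5 times the main number, and 5 did not; of those added after seeing the data, 12 did and 2 did not. The study's minimum equals the one of 0.5% here and is counted once. The ratio of insertions to deletions and the share of INDEL reads of 1 or 2 bp were higher at the 3′ junction under all alternatives. The order of the ends turned in 1 of 9 alternatives for the INDEL share, in 3 of 8 for the number of INDELs, which are nearly equal, and in 2 of 7 for the mean deletion length. No paired analysis was possible because both libraries come from 1 liver and are different junctions. Depth does not keep an INDEL of 0.1% from being seen, since 3 reads are 0.00252% and 0.000704% of it. Counting error can still move an INDEL near the minimum across it. The rarest one counted at the 5′ end had 0.102%, with an interval of 0.0850 to 0.121. Pairs of values are for the 5′ and 3′ junctions, and unless a cause is named it was not tested.

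With no minimum, the INDEL share was 31.2% and 49.8%, the ratio 0.216 and 0.694, the number 359 and 768, or 359 and 549 at the lowest depth, and the share of 1 or 2 bp 26.6% and 44.3%. With 0.5%, which is also the study's minimum for liver, they were 15.8% and 30.1%, 0.315 and 1.34, 17 and 15, and 42.0% and 65.0%. With 1% they were 8.38% and 24.8%, 0.376 and 2.28, 6 and 8, and 61.3% and 75.3%. A narrow window of 5 nt gave 23.4% and 29.3%, 0.238 and 1.60, 36 INDELs at the 3′ junction, and 33.6% and 71.8%.

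With the deletion list of library 1 as deposited, the 5′ junction had 53.8% INDELs, a ratio of 0.0915, 101 INDELs and 21.5% of 1 or 2 bp. The median depth over the window gave an INDEL share of 41.3% at the 3′ junction. Per-position counts gave INDEL shares of 31.3% and 49.8% and ratios of 0.218 and 0.696. Over the whole sequenced region, added after seeing the data, the INDEL share was 34.9% and 61.1% and the 3′ ratio 0.512. INDELs that lie wholly within 16 nt on each side, also added after seeing the data, made up 20.1% and 41.3%, with ratios of 0.290 and 0.776, 38 INDELs at the 5′ junction and 39.2% and 51.0% of 1 or 2 bp. Their mean deletion had 6.38 and 9.79 bp, the reverse of the order of 14.4 and 11.0 bp. This window holds donor and genomic DNA at both junctions to the same extent. It also limits a deletion on 1 side of the cleavage site to 16 bp. Of the 24 and 13 different deletions of 20 bp or more, it kept 0 and 6. The part of this limit in the turn of the order was not tested. The other turn was at a minimum of 1%, with 3.46 and 8.19 bp. Each INDEL counted once, the share of 1 or 2 bp was 13.8% and 18.2%. Counting deletions that leave the same sequence once changed no number.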
